A study of Mus musculus with 38 samples.

Results

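The 10 genes described here code for proteins of the lipid droplet surface and of the breakdown of stored triglyceride in liver: the perilipins Plin2, Plin4 and Plin5, the CIDE genes Cidea, Cideb and Cidec, the lipases Pnpla2, Pnpla3 and Mgll, and the lipase inhibitor G0s2. They were taken by name, with earlier results of these data known, from the 22485 genes that had a probe on the array. Each was read from its probe with the highest mean signal. Liver RNA came from male mice, 11 to 12 weeks old, of a mixed FVB/N and C57Bl/6 background, and was hybridised to Agilent 2-colour arrays, with each colour holding 1 mouse. LIRKO mice lack the insulin receptor (Insr) in liver, LIRFKO mice lack Insr and Foxo1, and the controls carry the same floxed alleles undeleted (IR floxed for LIRKO, IR/FoxO1 floxed for LIRFKO). The deletions were made with an albumin-Cre transgene, which acts in hepatocytes, so other liver cells keep both genes. All mice were fasted, and the labels give that fast both as overnight and as 24 h. Fasted livers came from 4 IR floxed, 3 LIRKO, 3 IR/FoxO1 floxed and 3 LIRFKO mice. Refed livers, taken 6 h after food was returned, came from 4, 4, 3 and 4 mice in the same order. Glucose livers, taken 60 min after a glucose load, came from 3 IR floxed, 3 LIRKO and 3 LIRFKO mice, and no IR/FoxO1 floxed mouse. Mice are named as in the labels, by line (IR or IRF), floxed or knockout (fl or KO), state and mouse number. All glucose mice have higher numbers than all other mice, so the load and the cohort cannot be told apart.

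Hepatocytes store triglyceride in droplets bounded by a single layer of phospholipid, and the proteins on that layer govern how fast the store grows and how fast lipases reach it. Perilipins coat the droplet, CIDE proteins pass lipid from small droplets to large ones and, in the case of CIDEB, help load lipoproteins, and PNPLA2 (adipose triglyceride lipase) takes the first fatty acid from triglyceride while G0S2 inhibits it. Fasting brings fatty acids into the liver and activates PPAR alpha, a receptor with several of these genes among its known targets. Insulin, which rises after a meal or a glucose load, restrains the transcription factor FoxO1.

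Cidec and Plin2 were higher in LIRKO than in IR floxed livers, both fasted and refed, and were lower in LIRFKO than in LIRKO livers. Plin4 fell on refeeding in each of the 4 genotypes. Pnpla2 was lower after refeeding in every genotype, a change that passed the test in IR floxed mice and in no other genotype. G0s2 fell after glucose in LIRKO livers, and there Plin4, Plin5 and G0s2 were all below the IR floxed glucose group. Cidea and Pnpla3 stayed near the low end of the array's range and passed in no comparison.

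Values are log2 levels as deposited, and a change is the log2 difference fitted by limma with 1 mean per group, the dye as a term and the array as a random block, given ± SE. Because of the dye and array terms, a fitted change can differ from the plain difference of 2 group means. A change passed when its p, adjusted by the Benjamini-Hochberg method over all 22485 genes of the comparison, was under 0.05. The number of arrays, 20 for 37 mice, limits the precision of every value. With each pair of groups fitted alone, 20 of the 24 changes of these genes that passed were lost, and those kept were Cidec and Plin2 in refed LIRKO against IR floxed, Cidec in refed LIRFKO against LIRKO, and Pnpla2 in LIRFKO against LIRKO after glucose. Fitted without the array block 10 of the 24 were lost, without the dye term 8 and with the slide as a block 5, as given beside each. Each sample is 1 mouse, and p-values measure the spread between these mice.

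Insr ran from 7.35 to 9.04 in the floxed libraries other than 1 and from 5.96 to 7.80 in the knockouts. The LIRKO mice IR.KO_GTT_690, at 7.80, and IR.KO_Fast_545, at 7.40, lay within the floxed range. Insr fell in LIRKO against IR floxed livers by 1.19 to 1.76 log2 over the 3 states. Foxo1 fell in LIRFKO against LIRKO livers by 2.64 to 3.53 log2. The floxed library set apart, IRF.fl_Fast_523 of the fasted IR/FoxO1 floxed group, had Insr at 6.90 and Foxo1 at 6.77, against Foxo1 at 10.17 and 10.57 in the other fasted mice of its group. It goes against its label, so it is called below the library labelled IRF.fl_Fast_523, and the comparisons that use its group are given without it where they are described. Leaving it out left 2 fasted IR/FoxO1 floxed mice. The 6 hepatocyte markers (Alb, Apoa1, Ttr, Serpina1c, Cps1 and Hnf4a) all lay above the median gene in every group. Of 5 adipocyte markers measured, Fabp4 alone lay above the median gene, and the group means of Adipoq, Lep, Retn and Plin1 lay between 5.35 and 5.70, below the median gene at 6.17. In whole liver, fewer cells of a type and less RNA per cell cannot be told apart.

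Refeeding, read against fasted mice of the same genotype, asks how these genes respond to a meal with and without hepatic insulin signalling. It lowered 2 of the 10 genes in IR floxed livers, where 3.61% of all genes changed. One gene was lowered in each other genotype, against a background of 3.54% in IR/FoxO1 floxed, 1.85% in LIRKO and 1.81% in LIRFKO livers. None of the 10 rose, and their median change ran from -0.72 to -0.47 log2, while the median over all genes was between -0.0026 and -0.0018. The 10 were chosen with earlier results of these data known, and most lie well above the median gene in level. The contrast of these medians is thus a description only. Glucose moved 1 of the 10 in LIRKO livers, where 0.596% of all genes changed. None of the 10 passed in the limma fit after glucose in IR floxed livers (0.16% of all genes changed, 2 members at an unadjusted p under 0.05) or in LIRFKO livers (0.654%, 3 members). Both kinds of response use the same fasted mice within a genotype.

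Between genotypes, 2 of the 10 rose in fasted LIRKO against IR floxed livers (8.06% of all genes changed) and 3 rose in refed livers (11.6%). After glucose 3 fell (8.3%). In LIRFKO against LIRKO livers, 2 of the 10 fell fasted (6.52% of all genes changed), 2 fell refed (8.09%), and after glucose 3 rose and 2 fell (7.57%). These mice differ in line as well as in Foxo1, and the contrast by itself cannot tell the 2 apart. No member passed in LIRFKO against IR/FoxO1 floxed livers, fasted (0.00445% of all genes changed, 0 members at an unadjusted p under 0.05) or refed (0.378%, 1 member). Fasted, the deleted genes did not pass there either (Insr, -0.99 log2, and Foxo1, -2.44 log2). The fasted comparison thus cannot show that LIRFKO livers equal their controls. Without the library labelled IRF.fl_Fast_523, 0.04% of all genes changed in it and no member passed. None passed between the 2 control lines refed (0.0845%, 1 member at an unadjusted p under 0.05).

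**Figure D1:**
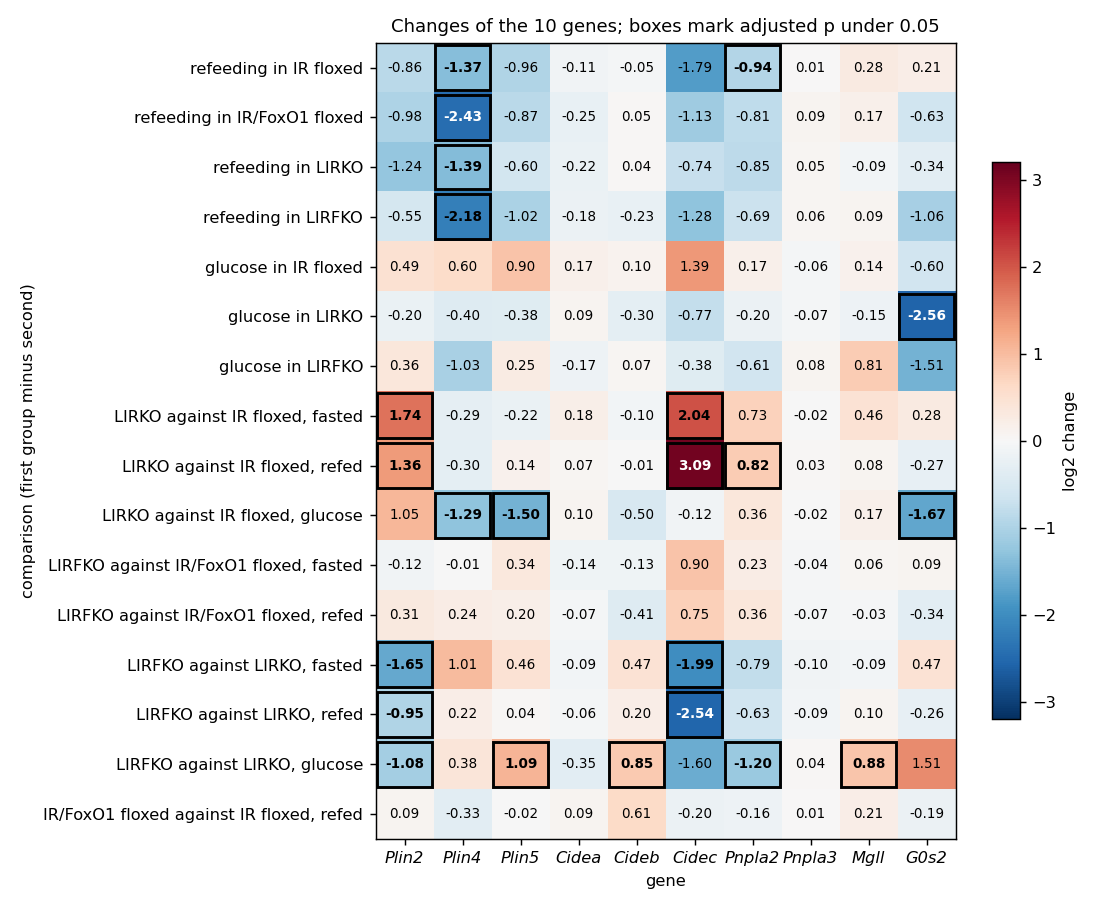
Fitted log2 change of each of the 10 genes (columns) in the 16 comparisons of 2 groups (rows, first group minus second), with red for higher and blue for lower in the first group. Boxed bold values have an adjusted p under 0.05 over all genes: Plin4 is boxed in all 4 refeeding rows, and Cidec and Plin2 are boxed in the fasted and refed rows that set LIRKO against IR floxed or LIRFKO against LIRKO.

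The spread over the 11 group means was 3.62 log2 for Cidec, 3.30 for G0s2, 2.61 for Plin4, 2.45 for Plin2, 1.82 for Plin5 and 1.73 for Pnpla2, each wider than in at least 96.9% of all genes. It was 1.07 for Mgll, 0.93 for Cideb, 0.47 for Cidea and 0.12 for Pnpla3. These were wider than in 89.4%, 85.3%, 56% and 15.5% of all genes, in that order. Fasted LIRKO livers had the highest mean of Cidec (12.19 ± 0.748, SD, n = 3), Plin2 (15.37 ± 0.405) and Pnpla2 (12.92 ± 0.241). Refed control livers had the lowest, with Cidec at 8.57 ± 0.978 and Plin2 at 12.92 ± 0.241 in IR floxed mice (n = 4) and Pnpla2 at 11.19 ± 0.34 in IR/FoxO1 floxed mice (n = 3). Plin4 and G0s2 were both highest in fasted LIRFKO livers (9.62 ± 0.656 and 10.66 ± 0.53, n = 3), though without the library labelled IRF.fl_Fast_523 fasted IR/FoxO1 floxed livers had the highest Plin4 mean (9.88, n = 2). Plin5 was highest in IR floxed livers after glucose (14.02 ± 0.91, n = 3). With the groups of a gene put in order of their means, neighbours overlapped in all but 2 places: LIRKO after glucose lay below the next group for G0s2, and fasted LIRFKO lay above the next group for Cideb.

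Plin2, the perilipin found on droplets of most cell types, stood at 13.05, 13.46, 13.87 and 14.20 in fasted IR floxed livers and at 15.10, 15.18 and 15.83 in fasted LIRKO livers. All 3 LIRKO mice lay above all 4 controls, and the highest of them lies near the top of the array's range, so its true level may be understated. The fitted rise was 1.74 ± 0.32 log2, or 3.35-fold (95% interval 2.12 to 5.30, limma, adjusted p = 0.00094). It passed in 15 of 16 alternatives and was lost with the pair of groups fitted alone (0.0655, the highest of all; lowest 0.000414). Refed, Plin2 was at 12.65, 12.79, 13.11 and 13.14 in IR floxed and at 13.61, 14.01, 14.09 and 14.38 in LIRKO livers. These groups did not overlap either, as was so for 13.5% of all genes refed and 14.2% fasted. The refed rise of 1.36 ± 0.30 log2 passed (adjusted p = 0.00226) as it did in every alternative run (0.00141 to 0.024). On the 3 slides that held both refed groups the difference ran from 0.82 to 1.48 log2, and on the 2 slides with both fasted groups it was 1.72 and 2.78 log2.

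In LIRFKO livers, which also lack Foxo1 and come from the other line, Plin2 stood lower than in LIRKO livers in every state. Line and loss of Foxo1 cannot be told apart in this contrast alone. Fasted LIRFKO livers had 13.63, 13.80 and 13.998, all below the LIRKO mice, a fall of 1.65 ± 0.34 log2 against LIRKO (limma, adjusted p = 0.0036). Refed LIRFKO livers had 12.41, 12.80, 13.48 and 13.48, and the fall of 0.95 ± 0.30 log2 passed (adjusted p = 0.0446). After glucose LIRFKO livers had 13.87, 14.04 and 14.04 against 14.67, 15.04 and 15.72 in LIRKO, a fall of 1.08 ± 0.34 log2 (adjusted p = 0.0497). In each of these pairs the groups did not overlap, as was so for 16.3%, 13.7% and 19.9% of all genes fasted, refed and after glucose. The fasted call was lost without IR.KO_Fast_550 (adjusted p = 0.0665, over all alternatives 0.0017 to 0.108). The refed call was lost without any 1 LIRKO mouse or without IRF.KO_Refed_468 or IRF.KO_Refed_469, with the slide as a block (0.0683) and without the array block (0.0653; over all alternatives 0.0239 to 0.176). The glucose call was lost without any 1 LIRFKO mouse or IR.KO_GTT_667 or IR.KO_GTT_697 and without the array block (0.0598; over all alternatives 0.026 to 0.214). On single slides the fasted difference was -1.84 log2 (IR.KO_Fast_550 being the LIRKO mouse there), the refed ones -1.01 to -0.61 and the glucose one -1.0 (IRF.KO_GTT_725 being the LIRFKO mouse).

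Against their own floxed controls, LIRFKO livers differed in Plin2 by -0.12 log2 fasted (95% interval -0.86 to 0.63) and by 0.31 refed (-0.37 to 1.0), and neither passed. The fasted controls were at 13.25 and 13.69 and, in the library labelled IRF.fl_Fast_523, at 14.53. Without that library the fasted difference turned to 0.20 log2 (95% interval -0.58 to 0.98, limma, adjusted p = 0.999). The knockout effect of LIRFKO against its controls was 1.86 ± 0.46 log2 below that of LIRKO against its controls in fasted livers, and this difference of differences passed (limma, adjusted p = 0.0452), the only 1 of the 10 genes to do so where 0.934% of all genes did. It did not pass without the library labelled IRF.fl_Fast_523 (adjusted p = 0.148, over all alternatives 0.0153 to 0.325), the array block (0.192) or the dye term (0.0705), nor without IR.fl_Fast_486 or IR.fl_Fast_491, IR.KO_Fast_505 or IR.KO_Fast_550, IRF.fl_Fast_516, or IRF.KO_Fast_518, IRF.KO_Fast_519 or IRF.KO_Fast_525. Refed, the same difference of differences was -1.04 ± 0.44 log2 for Plin2 and -2.34 ± 0.76 for Cidec, and neither passed (adjusted p = 0.298 and 0.136; 1.32% of all genes passed and 2 members had an unadjusted p under 0.05).

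Cidec, whose protein (also named FSP27) drives the growth of large droplets, varied most among the 10 genes. Fasted IR floxed livers had 9.70, 9.83, 10.43 and 11.19, and fasted LIRKO livers had 11.71, 11.80 and 13.05. The groups did not overlap, as was so for 14.2% of all genes, and IR.KO_Fast_550 was the highest LIRKO mouse for Cidec as for Plin2. The rise was 2.04 ± 0.56 log2, or 4.12-fold (95% interval 1.86 to 9.12, limma, adjusted p = 0.0218), and it did not pass without IR.KO_Fast_550 (0.169) or IR.fl_Fast_486 or IR.fl_Fast_491 (over all alternatives 0.0101 to 0.169). Refed IR floxed livers had 7.53, 8.31, 8.56 and 9.89, while refed LIRKO livers lay close together at 11.31, 11.43, 11.78 and 11.84. Every refed LIRKO mouse was thus above every refed control by more than 1 log2 unit, and the fitted rise of 3.09 ± 0.51 log2, or 8.5-fold (95% interval 4.10 to 17.6), passed at adjusted p = 0.000123 and in every alternative run (2.9e-05 to 0.0154). Within the 3 slides that held both refed groups the difference was 1.89 to 3.78 log2. Of all genes, 13.5% did not overlap between these refed groups.

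LIRFKO livers had less Cidec than LIRKO livers. Fasted, their values were 10.09, 10.50 and 10.89, below all 3 LIRKO mice (fall of 1.99 ± 0.59 log2, limma, adjusted p = 0.041), a call lost without IR.KO_Fast_505 or IR.KO_Fast_550 or IRF.KO_Fast_518 or IRF.KO_Fast_519, without the array block (0.102) or the dye term (0.0735), and with a trended robust prior (0.0506; over all alternatives 0.0173 to 0.355). Refed, their values were 7.72, 9.01, 9.17 and 10.23, again below all LIRKO mice, and the fall of 2.54 ± 0.51 log2 passed (adjusted p = 0.00192) as in every alternative run (0.000661 to 0.015), with differences of -2.94 to -1.61 log2 on 3 slides. After glucose LIRFKO livers had 9.75, 9.86 and 10.35 and LIRKO livers 11.17, 11.54 and 12.02, with no overlap, and the difference of -1.60 ± 0.59 log2 did not pass (adjusted p = 0.104). Of all genes, 16.3%, 13.7% and 19.9% did not overlap between LIRFKO and LIRKO livers fasted, refed and after glucose. Against IR/FoxO1 floxed livers the LIRFKO difference was 0.90 log2 fasted (95% interval -0.38 to 2.19) and 0.75 refed (-0.44 to 1.94), and neither passed. Without the library labelled IRF.fl_Fast_523 the fasted difference was 1.18 log2 (-0.25 to 2.61).

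Cidec and Plin2 differed least between LIRKO and IR floxed livers after glucose. IR floxed glucose livers were widely spread, with Cidec at 9.88 in IR.fl_GTT_659 and at 12.27 and 12.44 in IR.fl_GTT_699 and IR.fl_GTT_691. LIRKO values of Cidec (given above) lay within that spread (change of -0.12 ± 0.59 log2, limma, adjusted p = 0.948). Plin2 was 1.05 ± 0.34 log2 higher in LIRKO and did not pass (adjusted p = 0.0537). In IR floxed livers themselves the glucose change was 1.39 ± 0.59 log2 for Cidec, 0.90 ± 0.34 for Plin5 and 0.17 ± 0.30 for Pnpla2, none of which passed. Without IR.fl_GTT_659 all 3 passed (adjusted p = 0.036, 0.0265 and 0.043 in that order, over all alternatives up to 1 for each). The difference of glucose responses between LIRKO and IR floxed livers passed for no gene at all (0% of all genes), and 3 members had an unadjusted p under 0.05 (Cidec, -2.17 ± 0.81; G0s2, -1.96 ± 0.70; Plin5, -1.28 ± 0.47 log2).

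**Figure D2:**
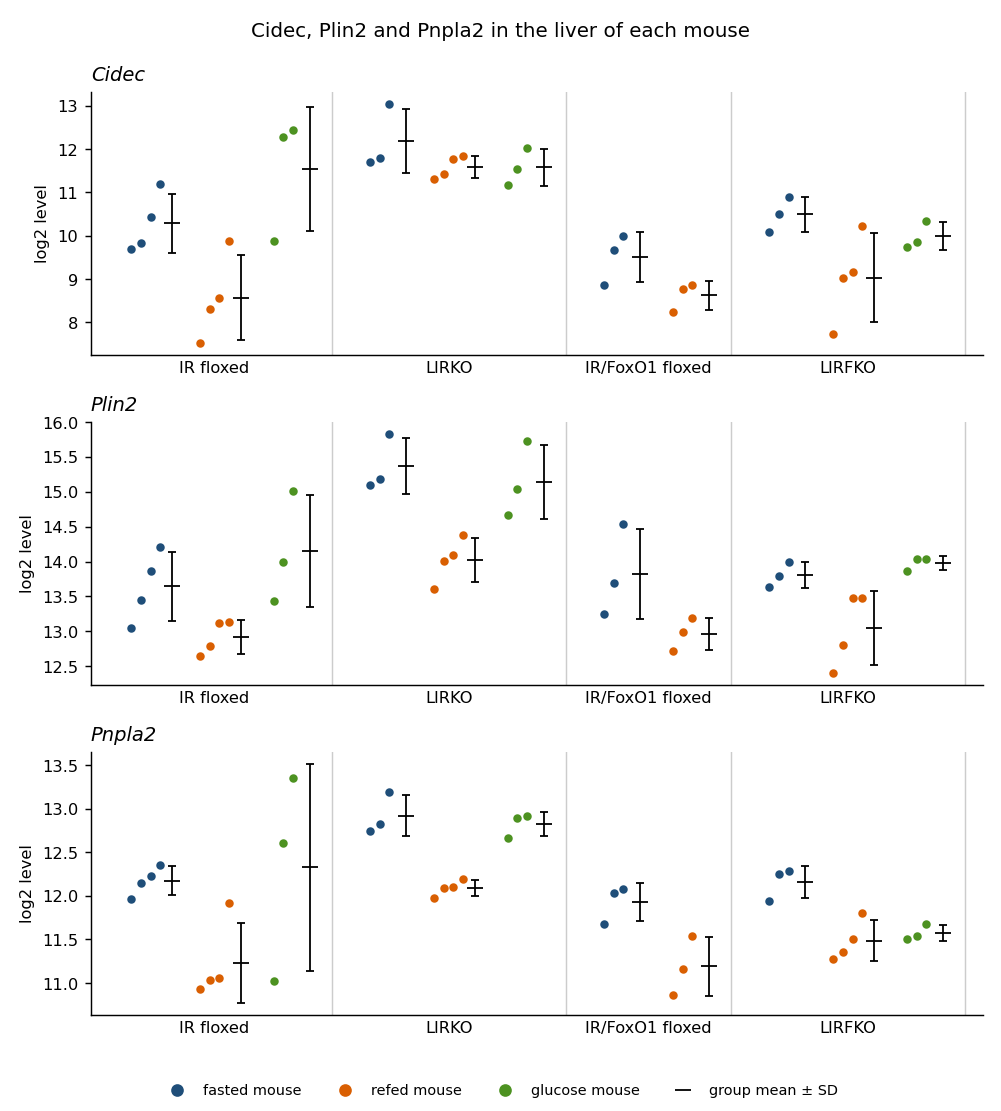
Log2 level of Cidec, Plin2 and Pnpla2 (vertical axes) in the liver of each mouse, with 1 point per mouse coloured by state, and black bars for the mean ± SD of each group. Fasted and refed LIRKO points of Cidec and Plin2 lie above all points of the matching IR floxed and LIRFKO groups, and IR.fl_GTT_659 is the low glucose point of IR floxed for all 3 genes.

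Refeeding changes of Plin2 and Cidec were all below 0 and did not pass. For Plin2 they were -0.86 ± 0.30 log2 in IR floxed, -0.98 ± 0.34 in IR/FoxO1 floxed, -1.24 ± 0.34 in LIRKO and -0.55 ± 0.32 in LIRFKO livers (limma, adjusted p = 0.121, 0.126, 0.054 and 0.465). Fasted and refed mice overlapped for Plin2 in IR floxed livers and not in the other genotypes. Of all genes, 17.6% did not overlap in IR/FoxO1 floxed, 12.1% in LIRKO and 11.6% in LIRFKO livers. The LIRKO change of Plin2 passed in 6 of 16 alternatives (adjusted p 0.0259 to 0.218), and the IR/FoxO1 floxed one in 1 of 15, without IRF.fl_Fast_533 (0.0472). Without the library labelled IRF.fl_Fast_523 the IR/FoxO1 floxed changes were -0.57 ± 0.38 log2 for Plin2 (adjusted p = 0.616) and -0.77 ± 0.70 for Cidec (0.766). For Cidec the changes were -1.79 ± 0.52, -1.13 ± 0.59, -0.74 ± 0.59 and -1.28 ± 0.55 log2 in the same order (0.0514, 0.406, 0.722 and 0.281). Without IR.fl_Refed_566, the refed IR floxed mouse highest in Cidec, the IR floxed change passed (0.0194, over all alternatives 0.0194 to 0.233).

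Markers of other cells moved with part of this pattern. All 6 Kupffer cell markers (Clec4f, Vsig4, Cd5l, Marco, Adgre1 and Csf1r) rose in refed LIRKO against IR floxed livers, with a mean level of 10.7 to 11.0 in LIRKO and 9.13 to 9.36 in IR floxed mice, and 3 of 6 hepatocyte markers fell (mean level 13.7 to 14.6 against 14.8 to 14.99). In refed LIRFKO against LIRKO livers 5 of the 6 Kupffer cell markers fell. Fasted, the mean level of the 6 Kupffer cell markers was 9.98 to 10.4 in LIRKO and 9.54 to 9.97 in IR floxed mice, which did not overlap. The markers' median change there was 0.35 log2, and none of the 6 passed. Of 5 adipocyte markers none passed in LIRKO against IR floxed livers, and 4 lay below the median gene in every group. The remaining one, Fabp4, a fatty acid carrier of adipocytes and of some macrophages and endothelial cells, was at 9.01, 9.28 and 9.38 in fasted LIRKO and at 7.99, 7.99, 8.34 and 8.57 in fasted IR floxed livers. These groups did not overlap, and the difference of 0.91 ± 0.31 log2 did not pass (limma, adjusted p = 0.0749). It was 0.51 ± 0.29 log2 refed (0.332) and 0.88 ± 0.33 after glucose (0.11), and LIRFKO differed from LIRKO by -0.64 ± 0.33 fasted (0.311). The part of these cells in the Cidec and Plin2 differences was not tested.

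Because Cidec and Plin2 moved together between genotypes that differ in Foxo1, their promoters were read for the FoxO core motif GTAAACA, the E-box CACGTG (a site of basic helix-loop-helix factors), the sterol regulatory element TCACNCCAC and the PPAR direct repeat (AGGTCA, any base, AGGTCA), on both strands. The windows are RefSeq's, GRCm38.p6, from 250 bases before to 50 after an annotated start, and were found for 9 of the 10 genes (12 windows). Cidec has 2 starts, at chr6:113435711-113436010 and chr6:113434715-113435014, Plin2 has 1 at chr4:86670010-86670309, all on the minus strand, and Mgll, shown because it alone holds the FoxO core, has its upstream start at chr6:88724162-88724461 on the plus strand. Sequences run 5′ to 3′ along the gene, and capitals mark a motif.
Cidec, upstream start: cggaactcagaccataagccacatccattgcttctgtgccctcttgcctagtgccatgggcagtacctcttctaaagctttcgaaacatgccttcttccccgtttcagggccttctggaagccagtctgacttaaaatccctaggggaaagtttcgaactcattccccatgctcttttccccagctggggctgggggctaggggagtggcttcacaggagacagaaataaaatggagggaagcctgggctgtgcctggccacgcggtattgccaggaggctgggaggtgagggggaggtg
Cidec, downstream start: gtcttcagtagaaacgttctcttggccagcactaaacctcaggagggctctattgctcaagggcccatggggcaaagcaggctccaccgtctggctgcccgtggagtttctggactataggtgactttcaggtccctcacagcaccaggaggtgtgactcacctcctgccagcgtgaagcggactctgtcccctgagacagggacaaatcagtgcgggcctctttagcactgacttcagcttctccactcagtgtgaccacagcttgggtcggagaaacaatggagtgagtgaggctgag
Plin2: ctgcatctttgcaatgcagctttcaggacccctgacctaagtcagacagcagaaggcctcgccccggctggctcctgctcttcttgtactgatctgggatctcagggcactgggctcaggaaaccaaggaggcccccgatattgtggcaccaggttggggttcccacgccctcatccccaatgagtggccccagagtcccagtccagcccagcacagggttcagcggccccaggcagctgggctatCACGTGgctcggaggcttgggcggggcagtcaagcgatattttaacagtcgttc
Mgll, upstream start: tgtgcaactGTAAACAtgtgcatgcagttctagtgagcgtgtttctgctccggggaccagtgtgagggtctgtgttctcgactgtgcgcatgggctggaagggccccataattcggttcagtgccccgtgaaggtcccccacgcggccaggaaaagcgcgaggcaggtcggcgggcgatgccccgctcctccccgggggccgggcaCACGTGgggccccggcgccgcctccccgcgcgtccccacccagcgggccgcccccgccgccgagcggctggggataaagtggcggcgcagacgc
The E-box in the Plin2 window begins at position -4 relative to the start, and in the Mgll window an E-box begins at -44 and the FoxO core at -241. Neither Cidec window holds any of the 4 motifs, nor do the windows of G0s2, Pnpla2, Pnpla3, Cideb, Plin4 and Plin5. Of 32851 mouse promoter windows of the same length, 3.65% hold the FoxO core, 7.15% the E-box, 1.24% the sterol element and 0.0396% the direct repeat. A match describes letters in this window and does not show binding.

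Plin4, a perilipin best known from adipocytes and muscle, was the gene of the 10 whose refeeding change passed in all 4 genotypes. Fasted livers had 8.10, 8.42, 9.20 and 9.37 in IR floxed, 7.76, 8.49 and 8.82 in LIRKO, 8.08, 9.24 and 10.52 in IR/FoxO1 floxed, and 8.88, 9.88 and 10.12 in LIRFKO mice. Refed livers had 6.75, 6.84, 7.47 and 8.53 in IR floxed, 6.80, 6.94, 7.12 and 7.19 in LIRKO, 7.0, 7.12 and 7.30 in IR/FoxO1 floxed, and 6.97, 6.98, 7.51 and 7.60 in LIRFKO mice. Fasted and refed mice did not overlap in 3 genotypes, and in IR floxed mice a single refed mouse, IR.fl_Refed_566, reached into the fasted range. Such a lack of overlap held for 17.6% of all genes in IR/FoxO1 floxed, 12.1% in LIRKO and 11.6% in LIRFKO livers.

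The fall of Plin4 on refeeding was 2.43 ± 0.37 log2 in IR/FoxO1 floxed (limma, adjusted p = 0.000434) and 2.18 ± 0.35 in LIRFKO livers (0.00111), which is 5.39-fold and 4.53-fold. It was 1.37 ± 0.33 in IR floxed (0.0155) and 1.39 ± 0.37 in LIRKO livers (0.0485), which is 2.59-fold and 2.62-fold. The LIRKO call is the least firm: leaving out any 1 of its 7 mice ended it, as did the slide as a block (0.0708) and the fit without the dye term (0.188; over all alternatives 0.0214 to 0.188). The IR floxed call was lost without IR.fl_Fast_542 (0.143) or IR.fl_Refed_506 (0.115) and without the dye term (0.0855; over all alternatives 0.00475 to 0.143). In IR/FoxO1 floxed livers the library labelled IRF.fl_Fast_523, at 8.08, was the lowest of its fasted group, and without it the change was -3.06 ± 0.39 log2 (8.68e-05), where 2.05% of all genes changed. The difference of refeeding responses of Plin4 did not pass between LIRKO and IR floxed livers (-0.02 log2, 95% interval -0.98 to 0.95; 0.165% of all genes passed), between LIRFKO and IR/FoxO1 floxed livers (0.25, -0.82 to 1.32; 0.00445%; without the doubted library 0.91, -0.14 to 1.95) or between LIRFKO and LIRKO livers (-0.79, -1.78 to 0.20; 0.0222%). Within single slides the refeeding change of Plin4 was -2.58 and -0.67 log2 in IR floxed, -2.17 in IR/FoxO1 floxed, -0.82 and -2.02 in LIRKO and -2.90 in LIRFKO livers. None of the 10 genes passed in these 3 tests of the responses, and none had an unadjusted p under 0.05 in them.

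After glucose Plin4 stood at 9.12, 9.28 and 9.69 in IR floxed and at 7.45, 7.83 and 8.20 in LIRKO livers. The groups did not overlap, and LIRKO was lower by 1.29 ± 0.37 log2 (limma, adjusted p = 0.0298), a call lost without IR.fl_GTT_659 or IR.fl_GTT_691 or IR.KO_GTT_667 or IR.KO_GTT_697 or the dye term (0.0515; over all alternatives 0.0124 to 0.243). On 2 slides the difference was -1.83 and -1.49 log2. LIRFKO glucose livers, at 8.16, 8.33 and 9.0, overlapped the LIRKO mice. Their difference from LIRKO, 0.38 ± 0.37 log2, did not pass.

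Plin5, a perilipin of oxidative tissues that binds PNPLA2 and ties droplets to mitochondria, is the chromosomal neighbour of Plin4, and over the 11 group means the 2 genes had r = 0.848. On refeeding Plin5 changed by -0.96 ± 0.30 log2 in IR floxed, -0.87 ± 0.34 in IR/FoxO1 floxed, -0.60 ± 0.34 in LIRKO and -1.02 ± 0.32 in LIRFKO livers, and none of these passed (limma, adjusted p = 0.0727, 0.192, 0.523 and 0.0977). Without the library labelled IRF.fl_Fast_523, the lowest of its group at 12.07, the IR/FoxO1 floxed change was -1.31 ± 0.38 log2 (0.0654). After glucose IR floxed livers had 13.15, 13.94 and 14.97, LIRKO livers 12.48, 12.57 and 12.75, and LIRFKO livers 13.44, 13.50 and 13.83. All LIRKO mice lay below the mice of both other groups, by 1.5 ± 0.34 log2 against IR floxed (adjusted p = 0.00559) and with LIRFKO higher than LIRKO by 1.09 ± 0.34 log2 (0.0464). The first call was lost without IR.fl_GTT_699, the highest (0.104, over all alternatives 0.000512 to 0.542). The second was lost without any 1 LIRKO mouse or without IRF.KO_GTT_725 or IRF.KO_GTT_726, without the array block (0.187) or the dye term (0.0696), and with the slide as a block (0.0919; over all alternatives 0.0303 to 0.396). Within slides the first difference was -2.48 and -0.58 log2 on the 2 slides with both groups, and the second was 1.08 on 1 slide, whose LIRFKO mouse was IRF.KO_GTT_725.

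G0s2, the inhibitor of PNPLA2, was lowest in LIRKO livers after glucose. Their values were 6.90, 7.30 and 7.89, against 9.16, 9.83 and 10.38 in fasted LIRKO mice. No other mouse of the study was below 8, and the fall of 2.56 ± 0.54 log2, or 5.88-fold (95% interval 2.73 to 12.7), passed (limma, adjusted p = 0.0311). It did not pass without IR.KO_Fast_505 or IR.KO_Fast_550 or IR.KO_GTT_667 or IR.KO_GTT_690 or the array block (0.0622; over all alternatives 0.0182 to 0.603). IR floxed glucose livers had 8.22, 9.50 and 9.93, and LIRKO was lower than these by 1.67 ± 0.51 log2 (adjusted p = 0.0381), a call lost without any 1 LIRKO mouse or IR.fl_GTT_659 or IR.fl_GTT_691 or the array block (0.0532; over all alternatives 0.018 to 0.412). On single slides the difference from IR floxed was -1.32 and -2.04 log2, and that between glucose and fasted LIRKO mice -3.48 and -1.94.

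In LIRFKO livers G0s2 was at 8.79, 8.93 and 9.22 after glucose and at 10.31, 10.40 and 11.27 fasted. These did not overlap, as was so for 13.1% of all genes. The change of -1.51 ± 0.50 log2 did not pass (limma, adjusted p = 0.18), nor did the LIRFKO to LIRKO difference after glucose, 1.51 ± 0.51 log2 (0.0682). In IR floxed livers the glucose change was -0.60 ± 0.51 log2 and overlapped. Refeeding changes of G0s2 ran from -1.06 log2 in LIRFKO to 0.21 log2 in IR floxed livers, and none passed. In IR/FoxO1 floxed livers the change was -0.63 log2, and without the library labelled IRF.fl_Fast_523, the highest of all mice at 11.37, it turned to 0.02 ± 0.56. Fasted IR floxed mice spread widely, from 8.34 to 11.08.

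**Figure D3:**
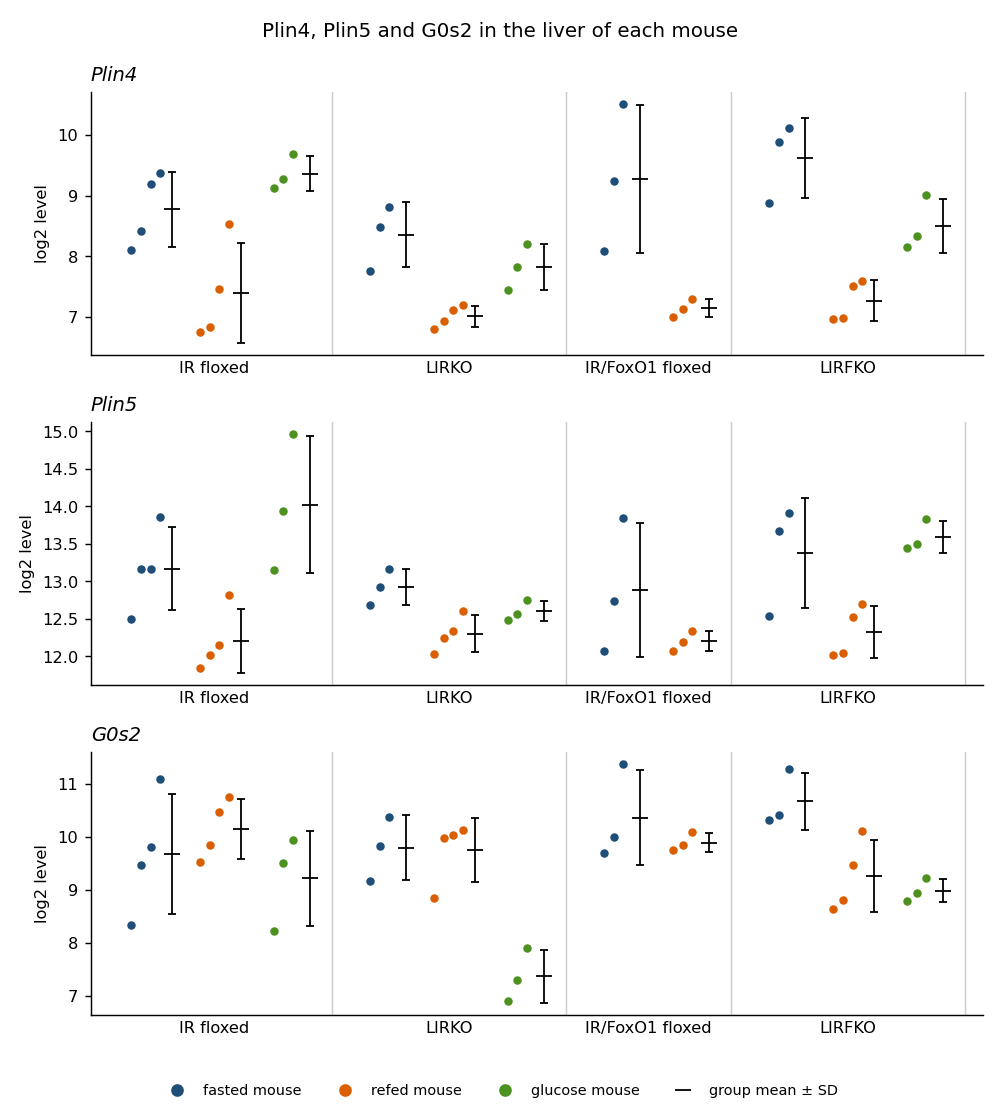
Log2 level of Plin4, Plin5 and G0s2 (vertical axes) in the liver of each mouse, with 1 point per mouse coloured by state, and black bars for the mean ± SD of each group. Refed points of Plin4 lie low in all 4 genotypes, and the 3 LIRKO glucose points of G0s2 (6.90 to 7.89) lie below every other mouse.

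Pnpla2, the main hepatic triglyceride lipase of the droplet surface, was at 11.97, 12.15, 12.23 and 12.35 in fasted and at 10.93, 11.03, 11.06 and 11.91 in refed IR floxed livers. The groups met without overlapping, since IR.fl_Refed_566 was just under the lowest fasted mouse, and the fall was 0.94 ± 0.26 log2, or 1.92-fold (limma, adjusted p = 0.043). This call was lost without any 1 of the fasted mice or of IR.fl_Refed_506, IR.fl_Refed_508 and IR.fl_Refed_562, without the array block (0.0731) or the dye term (0.0583), and with the slide as a block (0.061; over all alternatives 0.014 to 0.158). Refeeding changes in the other genotypes were of like size, -0.81 ± 0.30 log2 in IR/FoxO1 floxed, -0.85 ± 0.30 in LIRKO and -0.69 ± 0.28 in LIRFKO livers, and did not pass (0.167, 0.176 and 0.248). Fasted and refed mice did not overlap in any of these, as was so for 17.6%, 12.1% and 11.6% of all genes. In IR floxed livers 7.39% of all genes did not overlap. The IR/FoxO1 floxed change was -0.92 ± 0.36 log2 without the library labelled IRF.fl_Fast_523 (0.229). Within slides the IR floxed change was -0.99 and -0.32 log2. The difference of refeeding responses between LIRKO and IR floxed livers was 0.09 log2 (95% interval -0.68 to 0.87).

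LIRKO livers held more Pnpla2 than IR floxed livers when refed, with 11.97, 12.09, 12.10 and 12.20, all above the controls. Such a lack of overlap held for 13.5% of all genes. The rise was 0.82 ± 0.26 log2 (limma, adjusted p = 0.0383), a call lost without any 1 LIRKO mouse or IR.fl_Refed_506, IR.fl_Refed_508 or IR.fl_Refed_562 or the array block (0.0539; over all alternatives 0.00686 to 0.172), with differences of 0.29 to 1.04 log2 on 3 slides. Fasted LIRKO livers had 12.75, 12.83 and 13.20, also above all 4 controls, and 14.2% of all genes did not overlap there. The fasted difference of 0.73 ± 0.29 log2 did not pass (limma, adjusted p = 0.125). After glucose LIRKO livers had 12.67, 12.89 and 12.92 and LIRFKO livers 11.50, 11.55 and 11.68. LIRFKO was lower by 1.20 ± 0.30 log2 (adjusted p = 0.0137), a call lost without IR.KO_GTT_697 (0.097) or IRF.KO_GTT_725 (0.103; over all alternatives 0.00703 to 0.103). Over the 11 group means Pnpla2 went with Plin2 (r = 0.927) and Cidec (r = 0.916), a description over groups that share arrays and genotypes.

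Mgll, which cleaves the last fatty acid from monoglyceride, had group means from 12.64 to 13.71, a spread wider than in 89.4% of all genes. Its single call was after glucose, where LIRFKO livers had 13.11, 13.67 and 14.36 and LIRKO livers 12.72, 13.02 and 13.09, a rise of 0.88 ± 0.26 log2 (limma, adjusted p = 0.0375). The lowest LIRFKO mouse was only just above the highest LIRKO mouse, and the call was lost without IRF.KO_GTT_725 (0.465) or IRF.KO_GTT_727 or IR.KO_GTT_690 or IR.KO_GTT_697, without the array block (0.085) or the dye term (0.0775), and with the slide as a block (0.0528; over all alternatives 0.00749 to 0.465). Cideb, the CIDE gene of hepatocytes, had group means from 13.39 to 14.32, and the 4 highest of them belonged to the IR/FoxO1 line (both floxed groups, and LIRFKO fasted and after glucose). The highest was that of fasted IR/FoxO1 floxed livers. Without the library labelled IRF.fl_Fast_523, at 14.72, their mean was 14.12 and ranked 3rd, below refed IR/FoxO1 floxed livers at 14.28. Between the refed control lines Cideb differed by 0.61 ± 0.17 log2, which did not pass (limma, adjusted p = 0.237). These groups did not overlap, as was so for 6.46% of all genes. After glucose it was at 13.94, 14.08 and 14.58 in LIRFKO and at 12.95, 13.60 and 13.62 in LIRKO livers, a rise of 0.85 ± 0.18 log2 (adjusted p = 0.00377) that did not pass without IRF.KO_GTT_725 (0.12, over all alternatives 0.0017 to 0.301).

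In the comparison of LIRFKO with LIRKO glucose livers, which holds 5 of the 24 passing changes of these genes, IRF.KO_GTT_725 was the highest LIRFKO mouse for Plin5, Mgll and Cideb, and without it no member passed. The 1 slide with both groups holds that same mouse, so its values are no separate measurement: the differences there were 1.34 log2 for Mgll, 0.96 for Cideb and -1.42 for Pnpla2. Of other markers, Fabp4 fell there among 5 adipocyte markers (-1.34 ± 0.33 log2, adjusted p = 0.0126), Ttr rose among 6 hepatocyte markers, and no Kupffer cell marker passed (mean level 9.65 to 10.7 against 9.90 to 10.6). The mean level of 4 lymphocyte and neutrophil markers was 7.10 to 9.49 in LIRFKO mice (8.05 ± 1.26, SD) and 6.98 to 7.33 in LIRKO mice. The part of all these markers in the result was not tested. Insr was itself lower in LIRFKO than in LIRKO livers after glucose, at 6.18 to 6.33 against 6.65 to 7.80 (-0.84 ± 0.24 log2, limma, adjusted p = 0.0295). With no IR/FoxO1 floxed mice after glucose, line, loss of Foxo1 and this difference in Insr cannot be told apart here.

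Cidea and Pnpla3 lay low in every group. Pnpla3, a relative of Pnpla2 known for its link to fatty liver in people, lay between 5.36 and 5.69 in all 37 mice, and its group means spanned 0.12 log2. Cidea, the CIDE gene of brown fat, lay between 5.43 and 6.63, and its level went with the slide: the 8 mice of 1 slide, from 7 groups, lay between 5.88 and 6.63, and all 29 others between 5.43 and 5.81. The median gene was at 6.17, and the deposited table holds no detection call, so a change in either gene could have gone unseen. Their fitted changes ran from -0.35 to 0.18 log2 for Cidea and from -0.10 to 0.09 for Pnpla3, with no adjusted p below 0.33.

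**Figure D4:**
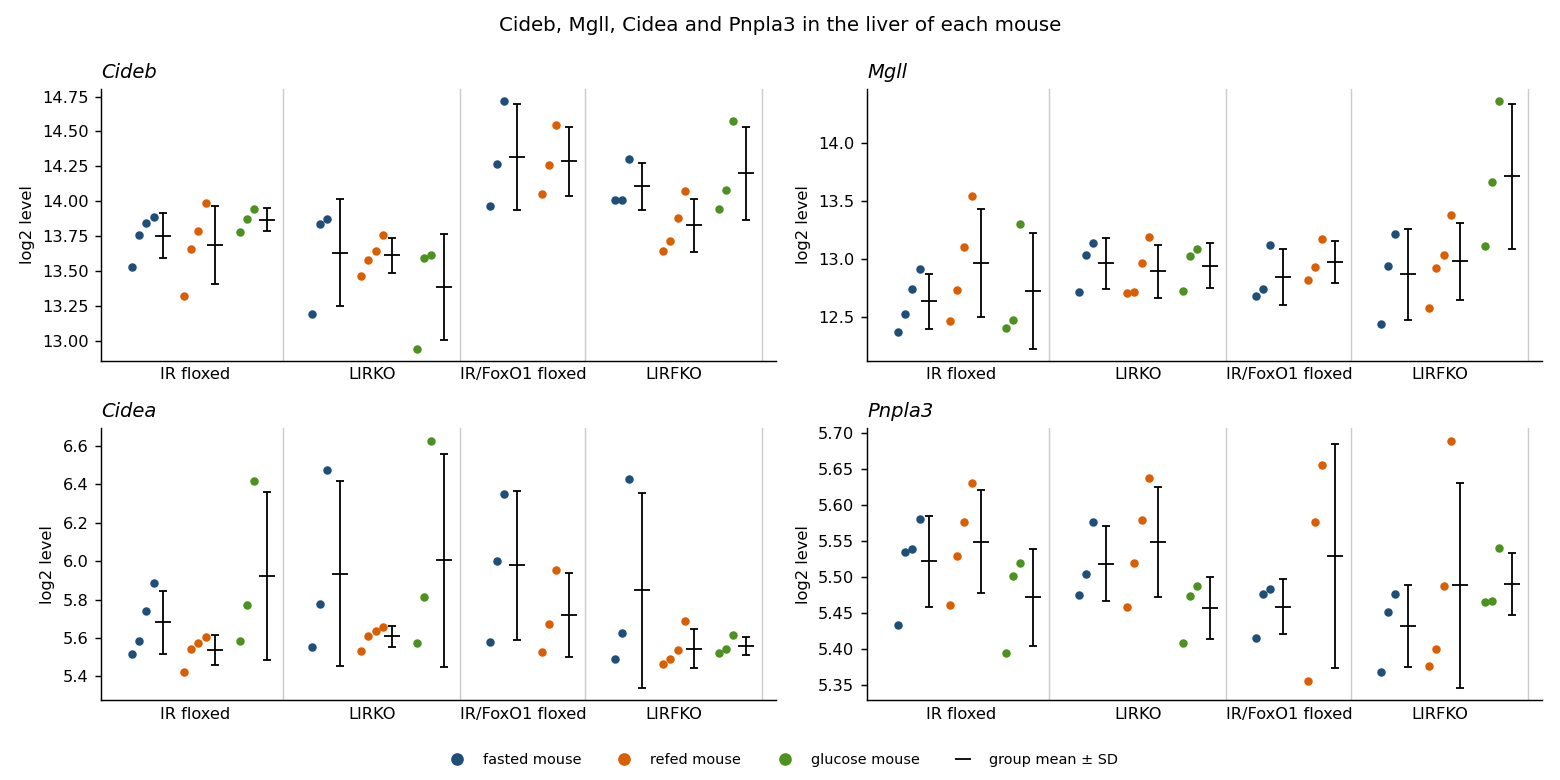
Log2 level of Cideb, Mgll, Cidea and Pnpla3 (vertical axes, each with its own range) in the liver of each mouse, with 1 point per mouse coloured by state, and black bars for the mean ± SD of each group. The LIRFKO glucose points of Mgll and Cideb lie above those of LIRKO, and all Pnpla3 points lie within 5.36 to 5.69.

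Second probes were at hand for 4 of the 10 genes. The dimmer Cidec probe gave 1.79 and 1.92 log2 for LIRKO against IR floxed fasted and refed, and -1.91 and -1.90 for LIRFKO against LIRKO, the same signs as the probe used at smaller size in refed livers. The second Cideb probe gave 0.91 log2 for LIRFKO against LIRKO after glucose. For Mgll, 2 of the 3 other probes gave 0.61 and 0.84 log2 in that comparison and the dimmest gave 0.10. Both Pnpla3 probes were near the low end.

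Likeness over the 11 group means was read among 2513 genes. These had a mean level above that of the median gene and group means that spanned at least 1 log2 unit. Provisional gene names, such as those with Gm or Rik, were left out. The genes most like Plin2 were Sgms1 (r = 0.976), Inhbb (0.973) and Vnn1 (0.965). Those most like Cidec were Wdr92 (0.955), Sulf2 (0.945) and Igfbp1 (0.936). Plin4 was most like N4bp2l1 (0.944), Cyp4f15 (0.937) and Fkbp5 (0.934), and G0s2 most like Igfbp4 (0.926), Acy1 (0.924) and Zfp467 (0.904). These values describe 11 points that share libraries within a group.

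Other genes of triglyceride storage and breakdown give the setting, 45 of them measured. In LIRKO against IR floxed livers 4 rose and 7 fell fasted (8.06% of all genes changed), 7 rose and 7 fell refed (11.6%), and 3 rose and 11 fell after glucose (8.3%). In LIRFKO against LIRKO livers 7 rose and 3 fell fasted (6.52%), 6 rose and 8 fell refed (8.09%), and 6 rose and 3 fell after glucose (7.57%). None passed in LIRFKO against IR/FoxO1 floxed livers (0.00445% of all genes fasted and 0.378% refed), but fasted neither Insr nor Foxo1 passed there. Hilpda, a droplet protein that inhibits PNPLA2, averaged 9.25 in fasted LIRKO, 7.45 in fasted IR floxed and 7.74 in fasted LIRFKO livers. It rose by 1.75 ± 0.16 log2 in fasted LIRKO against IR floxed (limma, adjusted p = 1.22e-07) and fell by 1.54 ± 0.17 in LIRFKO against LIRKO (2.21e-06).

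The carboxylesterase Ces1f went the other way, with changes of -3.49 ± 0.44 log2 fasted and -4.25 ± 0.40 refed in LIRKO against IR floxed livers and of 3.86 ± 0.47 and 4.27 ± 0.40 in LIRFKO against LIRKO livers (adjusted p under 0.05 in all 4). Ces1d, a triglyceride hydrolase of the endoplasmic reticulum, fell by 1.44 ± 0.30 log2 fasted in LIRKO livers. The Ces1 genes are near copies of one another, so a probe may read more than 1 of them. Lpl, which frees fatty acids from lipoproteins, rose in LIRKO livers by 1.94 ± 0.41 log2 fasted, 2.46 ± 0.38 refed and 2.82 ± 0.44 after glucose. On refeeding 1 of the 45 rose and 5 fell in IR floxed livers (3.61% of all genes changed), and 1 rose and 2 fell in IR/FoxO1 floxed livers (3.54%). Gpat3 had the smallest p in both and fell by 0.98 ± 0.17 log2 (limma, adjusted p = 0.00139) and 0.96 ± 0.20 (0.00484). The 1 that rose was Abhd5, the coactivator of PNPLA2, in IR floxed (0.60 ± 0.12 log2, adjusted p = 0.00439) and IR/FoxO1 floxed livers (0.64 ± 0.14, 0.00665). In LIRKO livers 1 rose and 2 fell (1.85%), and in LIRFKO livers 0 rose and 2 fell (1.81%).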

How the data were processed

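The authors deposited 1 table of log2 values for 45220 array features in 38 liver samples, made with limma 3.20.1 in R 3.1.0 per the submitters' processing notes. No source used here gives the background correction or normalization, and the table has no detection calls. Each column was matched to its sample by the sample's identifier, and the group was read from the sample's title. The sample titled IRF.KO_GTT_724 entered no comparison, since its title says glucose and its treatment label fasting. Of the features, 33026 had 1 gene symbol in the platform annotation and 12194 had none. For each of 22485 genes the probe with the highest mean was kept.

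Groups were compared with limma 3.58.1 (R 4.3.3): 1 mean per group, all 37 mice in 1 fit, the dye as a fixed term, the array as a random block (correlation 0.358, statmod 1.5.0) and Benjamini-Hochberg adjustment over all genes within each of 22 comparisons, at a threshold of 0.05. The script was tested on simulated data. Named genes were the 10 members, the pathway genes from a list that passed with the smallest p, and the 3 genes most like each of 4 members. The members, pathway lists and marker lists were chosen with earlier results of these data known. Alternatives were: no array block, no dye term, the slide as a block, the mean of all probes, quantile normalization, genes above the median level, a trended robust prior, IRF.fl_Fast_523 left out, each pair of groups fitted alone, and each mouse left out in turn. Protein sequences were not used here.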

Additional observations from a re-analysis of the deposited data

Results flagged for a closer look

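In refed LIRKO livers G0s2 stood at 8.84 in IR.KO_Refed_565, apart from the other 3 mice at 9.97 to 10.12, a gap of 0.877 of the group's range, past the 95% limit of Dixon's test for 4 mice. In refed IR floxed livers Pnpla2 stood at 11.91 in IR.fl_Refed_566, above the others at 10.93 to 11.06, a gap of 0.866 of the range. The same mouse was the highest of its group for Cidec (9.89), Plin4 (8.53) and Plin5 (12.82). These are 2 of 40 groups tested, and chance sets apart about 1 in 20.

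In fasted livers the knockout effect on Plin2 passed as different between the lines. LIRFKO against its controls minus LIRKO against its controls was -1.86 ± 0.46 log2 (limma interaction, adjusted p = 0.0452). Without the library labelled IRF.fl_Fast_523 it was -1.57 ± 0.46 log2 and did not pass (limma, adjusted p = 0.148). It also did not pass without the array block, without the dye term, or with the groups fitted alone.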

How the results depend on the processing

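Of 24 member changes that passed, none reversed under any alternative: 263 of 385 alternative values kept their side of the threshold and 122 did not pass. Those of Cidec and Plin2 in LIRKO against IR floxed refed livers, and of Cidec in LIRFKO against LIRKO refed livers, passed in every alternative. The counts of members that passed moved as follows. Fitted without the array block, refeeding in IR floxed gave 1 in place of 2, refeeding in LIRKO 2 in place of 1, glucose in LIRKO 0 in place of 1, and LIRFKO against LIRKO 1 in place of 2 fasted, 1 in place of 2 refed and 2 in place of 5 after glucose. Without the dye term, refeeding in IR floxed gave 0, LIRFKO against LIRKO gave 1 fasted and 3 after glucose. With the slide as a block, refeeding gave 1 in IR floxed and 0 in LIRKO, and LIRFKO against LIRKO gave 1 refed and 3 after glucose. With the mean of all probes, refeeding in LIRKO gave 2. Among genes above the median level, where fewer genes are tested, refeeding gave 4 in IR floxed and 2 in LIRKO. With a trended robust prior refeeding in LIRKO gave 2 and LIRFKO against LIRKO fasted gave 1. Without IRF.fl_Fast_523, refeeding in LIRKO gave 2. With each pair fitted alone, with fewer mice to estimate the spread, none passed for refeeding in IR floxed, IR/FoxO1 floxed and LIRFKO, glucose in LIRKO, LIRKO against IR floxed fasted and after glucose, and LIRFKO against LIRKO fasted, and 2 passed in LIRFKO against LIRKO after glucose. The fasted difference of knockout effects gave 0 without the array block, the dye term or IRF.fl_Fast_523, or fitted alone. Beyond these constructions the cause was not tested.

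Leaving out 1 mouse at a time, refeeding gave 0 to 3 in IR floxed, 1 to 2 in IR/FoxO1 floxed and 0 in LIRKO, and glucose gave 0 to 3 in IR floxed, 0 to 1 in LIRKO and 0 to 1 in LIRFKO. LIRKO against IR floxed gave 1 to 2 fasted, 2 to 3 refed and 1 to 3 after glucose, and LIRFKO against LIRKO gave 0 to 2, 1 to 2 and 0 to 3. The difference of knockout effects gave 0 to 1 both fasted and refed, where Cidec passed without IR.fl_Refed_566 (adjusted p = 0.0341, over all alternatives up to 0.293). Quantile normalization moved no count of members that passed by over 1.5 times. No paired analysis was possible because the groups share no mouse numbers. Groups of 3 or 4 mice and 1 library at the top of the range for Plin2 limit what can be read, and the absence of detection calls limits Cidea and Pnpla3.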

Other observations

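The sample titled IRF.KO_GTT_724, whose labels give both glucose and fasting alone, had G0s2 at 10.0001, Pnpla2 at 11.67, Mgll at 13.28, Cideb at 14.10, Cidec at 10.86, Plin2 at 14.39, Plin4 at 9.16 and Plin5 at 13.72. Cidea and Pnpla3 both read 5.50 there.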
